A study of Homo sapiens with 2 samples.

Results

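The genes described here encode the transport machinery and the gate of the cilium: the subunits of intraflagellar transport (IFT), its motors, the BBSome and the proteins of the transition zone. They were taken from the deposited table by gene symbol: IFT, BBS, NPHP, TCTN or B9D followed by a digit, or 1 of a list of 23 further symbols. This gave 48 genes with 49 probe sets, of 20235 genes and 33297 probe sets in all. HSPB11, on that list, had no row under this symbol. The set was selected on the ratios of LBH589 over untreated intensity on these same arrays, so its counts below are a description and are not evidence of a direction.

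AGS is an established human gastric adenocarcinoma cell line. Cells exposed to 100 nM LBH589 (panobinostat, a hydroxamate inhibitor of histone deacetylases) for 24 h gave 1 array, and untreated AGS cells gave 1 array. The second array is titled as control treated, but its treatment is given as none, and neither a vehicle nor a culture time is stated. No group had a replicate, so no difference below has an error or a test; the words higher and lower mean a ratio of at least 2-fold unless a value says otherwise. In RNA from whole cultures, more cells that express a gene and more RNA per cell cannot be told apart.

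Cilia are built and maintained by trains that move along the microtubules of the axoneme. IFT-B trains, pulled outward by kinesin-2, carry building material to the tip, IFT-A and dynein-2 serve the way back, and IFT-A with its adaptor TULP3 also brings receptors in. The BBSome is a coat-like complex that takes membrane proteins out of the cilium, and it is recruited by the small GTPase ARL6. The transition zone, made of the MKS module, the nephrocystins and scaffolds such as CEP290, is the gate at the cilium's base. Loss of these genes in people causes ciliopathies such as Bardet-Biedl, Joubert and Meckel syndromes and nephronophthisis. Many of them carry an X-box, the letters bound by RFX transcription factors, close to the gene start.

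Promoter sequences were found for 43 of the 48 genes in RefSeq (GRCh38.p14), from 250 bases before to 50 after the gene start. The half-site GTTGCC, searched on both strands, lay within 50 bases of the start in 18 of 43 genes (41.9%), against 5.56% of the 27305 genes in the same table. The fuller form, GTTNCC followed after NN by GGNAAC (N is any base), with up to 2 mismatches outside the N positions and allowed to overlap a half-site, lay there in 16 of 43 genes (37.2%), against 6.01% of all genes. An NRF1-type motif, GCGC followed after NN by another GCGC, lay there in 2 of 43 genes (4.65%), against 5.07% of all genes. These counts describe letters and not occupied sites.

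The stretches below run from 65 bases before to 20 bases after the gene start, 5′ to 3′ on the gene's strand, and capitals mark every base inside a half-site or fuller X-box match. The first 5 belong to genes whose intensity was over 2-fold higher with LBH589, and are shown because the letters differ among them.
WDR19, chr4:39182464-39182548, plus strand: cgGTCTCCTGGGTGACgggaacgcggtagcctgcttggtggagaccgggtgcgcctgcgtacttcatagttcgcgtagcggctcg
TTC30A, chr2:177618723-177618807, minus strand: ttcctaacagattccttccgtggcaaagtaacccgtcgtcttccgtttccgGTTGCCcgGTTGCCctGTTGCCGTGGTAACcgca
TTC26, chr7:139133713-139133797, plus strand: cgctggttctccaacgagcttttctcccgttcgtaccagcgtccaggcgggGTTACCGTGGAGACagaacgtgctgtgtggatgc
IFT122, chr3:129440159-129440243, plus strand: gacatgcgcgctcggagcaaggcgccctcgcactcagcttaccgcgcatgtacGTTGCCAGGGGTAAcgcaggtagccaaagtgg
BBS4, chr15:72686142-72686226, plus strand: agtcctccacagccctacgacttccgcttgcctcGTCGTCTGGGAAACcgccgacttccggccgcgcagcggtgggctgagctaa

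The next 5 belong to genes that stayed within 2-fold or below background, and are shown because they hold an X-box match as well.
TTC30B, chr2:177552777-177552861, minus strand: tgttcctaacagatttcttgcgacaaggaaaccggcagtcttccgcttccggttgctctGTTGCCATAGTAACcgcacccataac
DYNC2LI1, chr2:43773974-43774058, plus strand: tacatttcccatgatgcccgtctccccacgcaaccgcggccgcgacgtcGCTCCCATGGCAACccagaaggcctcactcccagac
BBS5, chr2:169479429-169479513, plus strand: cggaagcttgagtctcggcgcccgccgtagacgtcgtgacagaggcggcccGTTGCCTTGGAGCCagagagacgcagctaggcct
MKS1, chr17:58219236-58219320, minus strand: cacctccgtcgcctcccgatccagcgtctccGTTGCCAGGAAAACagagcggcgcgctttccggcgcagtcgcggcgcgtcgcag
TCTN1, chr12:110614064-110614148, plus strand: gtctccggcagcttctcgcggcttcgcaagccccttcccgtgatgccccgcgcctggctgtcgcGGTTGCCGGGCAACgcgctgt

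The arrays were alike in overall signal. Over all probe sets the median intensity was 4.77 with LBH589 and 4.84 without treatment, and 53.2% and 53.7% of probe sets reached background, 4.36, the level below which 95% of 450 olfactory receptor probe sets lay. Among 18769 genes detected, the median log2 ratio of LBH589 over untreated was 0.00, with a central 95% from -1.37 to 1.33. All 8 epithelial markers lay above background on both arrays, but not at equal levels. The keratins KRT8 (2292 with LBH589, 1967 untreated) and KRT18 (632 and 634) stayed within 2-fold, and KRT19 (1171 and 566) was 2.07-fold higher. The adhesion proteins CDH17 (31.0 with LBH589, 175 untreated) and EPCAM (337 and 577) were 5.66-fold and 1.71-fold lower. CDH1 was dim, with 9.72 with LBH589 and 11.4 untreated, and CDX1 and CDX2 had ratios of 0.929 and 0.947. The part of these marker differences in the values of the ciliary genes was not tested. All 3 endothelial markers lay below background on both arrays. Of 4 leukocyte markers, 2 lay below background on both arrays. Of 5 fibroblast markers, COL1A1 alone was above background on both arrays, with 38.8 with LBH589 and 26.6 without treatment.

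Of the 48 genes, 15 had a deposited intensity at least 2-fold higher with LBH589, and none was 2-fold lower. For BBS12 and RPGRIP1L the untreated value lay below background, so that 13 of the 15 pass 2-fold when set against background. They were BBS9, WDR19, IFT80, TTC30A, TTC26, BBS10, IFT88, KIFAP3, TCTN3, IFT122, IFT20, RPGRIP1L, BBS4, BBS7 and BBS12. Among all detected genes 4.90% were higher by that size, and 4.86% lower. Of the genes above background on at least 1 array, 6.83% were higher and 6.78% lower. A log2 ratio above 0 was found for 41 of the 48 genes, and for 49.99% of all detected genes. The 41 include genes below background on both arrays. Among genes above background on at least 1 array, the ratio was above 0 for 36 of 41 ciliary genes and for 50.8% of all genes. The median log2 ratio of all 48 was 0.50. TULP3, at 1.99-fold, lay just short of the size used, and BBS7, at 2.12-fold, just past it. BBS12 had a ratio of 2.10 as deposited, which is at least 1.56-fold against background. At 3-fold, 7 of the 48 genes were higher, beside 1.44% of all detected genes and 2.01% of those above background on at least 1 array.

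**Figure D1:**
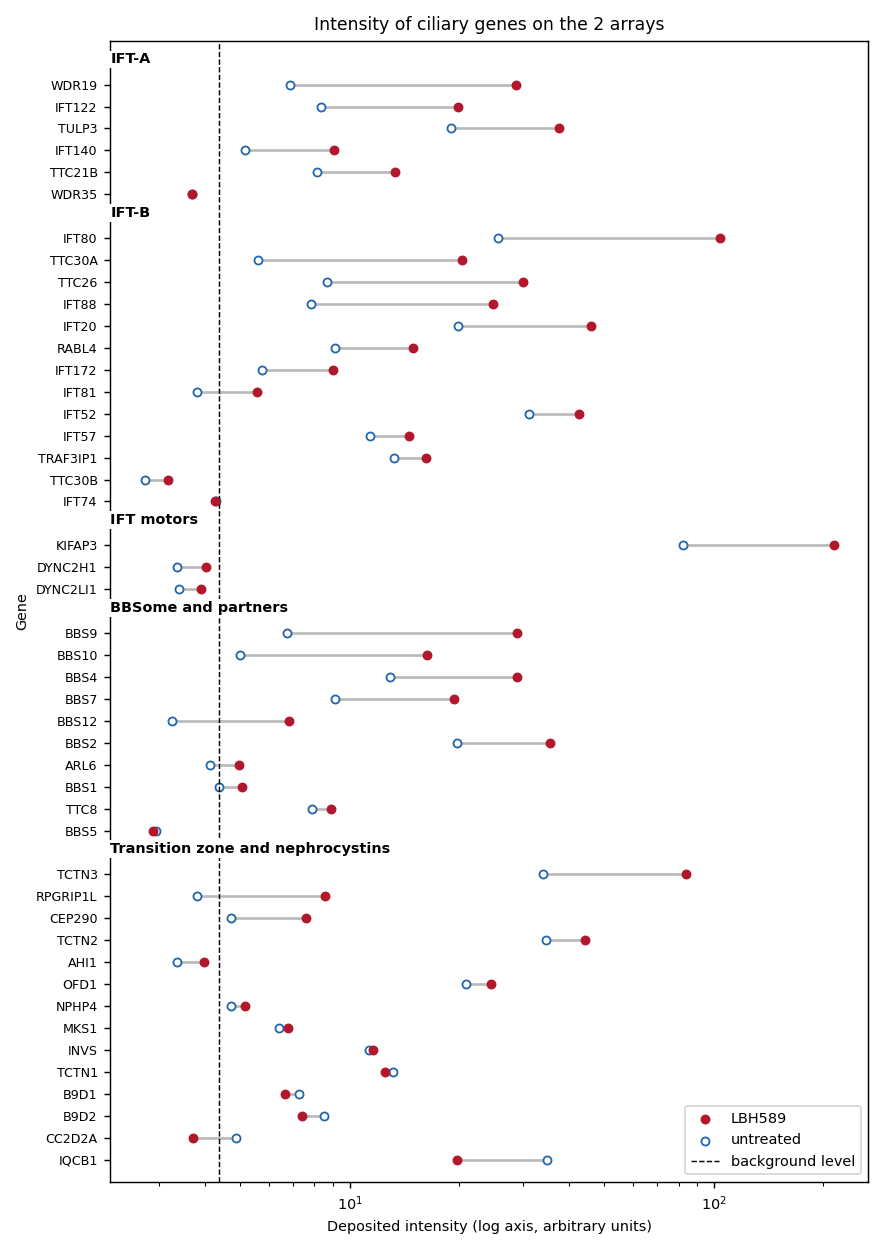
Deposited intensity of 46 of the 48 genes on the LBH589 array (filled) and the untreated array (open), on a log axis, by functional group and sorted by ratio; 1 array per group, with the dashed line at the background level of 4.36. The LBH589 point lies furthest to the right of the untreated one in IFT subunits and BBSome genes, while IQCB1 at the bottom runs the other way.

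Signal strength limits these folds. The 35 genes above background on both arrays include 13 of the 15, 6 genes were above it on 1 array and 7 on neither. BBS5, at 2.88 with LBH589 and 2.93 untreated, was also under the lower floor of 2.95 and is the only gene of the 48 counted as not detected. With 50 added to every intensity, which is more than most of these genes have, IFT80 alone stayed past 2-fold, where 0.714% of all detected genes were 2-fold higher and 0.778% lower. With every intensity floored at background, where 13 of the 15 passed, 6.60% of genes were higher and 6.67% lower. With a floor of 16 for every intensity, 4 of the 20 genes that reached it stayed past 2-fold, namely IFT20, IFT80, KIFAP3 and TCTN3, where 8.08% of all genes that reached it were higher and 7.94% lower.

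**Figure D2:**
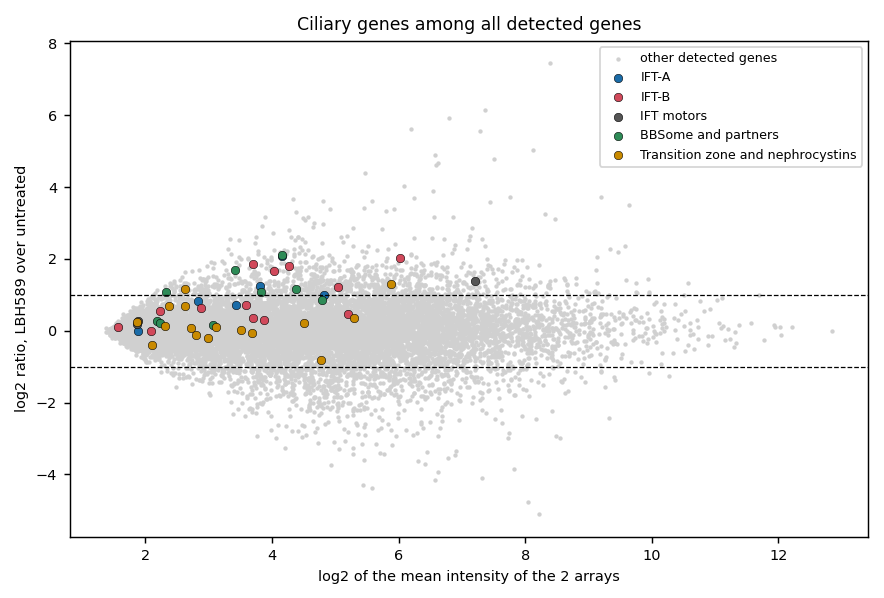
log2 ratio of LBH589 over untreated against the log2 mean intensity of both arrays, for 18769 detected genes (grey) and the 47 detected ciliary genes (coloured by group); dashed lines mark 2-fold. Most coloured points lie at low intensity, and 15 lie above the upper line and none below the lower one.

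IFT-A, the complex of the return journey and of receptor import, had 2 of 6 measured genes 2-fold higher, beside 4.90% of all detected genes. The group's median log2 ratio was 0.90. WDR19, a core subunit also called IFT144, had 28.7 with LBH589 and 6.83 untreated, 4.20-fold higher. Another core subunit, IFT122, had 19.8 with LBH589 and 8.34 untreated, 2.37-fold higher. The third core subunit, IFT140, had 9.08 with LBH589 and 5.16 untreated, a ratio of 1.76. The whole core was therefore brighter on the LBH589 array, with IFT140 short of 2-fold. The outer subunit TTC21B (IFT139) had 13.3 with LBH589 and 8.15 untreated. TULP3, the adaptor that carries receptors on IFT-A, had 37.6 with LBH589 and 18.9 untreated. WDR35 (IFT121), the other outer subunit, was below background on both arrays, at 3.69 with LBH589 and 3.68 untreated, so its probe set gives no usable ratio. IFT43, listed under an older name (C14orf179) and so not counted, had 16.7 with LBH589 and 10.3 untreated.

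IFT-B, the complex of the outward journey, had 5 of 13 measured genes 2-fold higher, beside 4.90% of all detected genes. IFT-B had a median log2 ratio of 0.64. Its largest ratio was that of IFT80, a peripheral subunit, with 104 with LBH589 and 25.5 untreated, 4.08-fold higher. IFT80 ranked 115 of 18769 detected genes by ratio. The core subunit IFT88, whose mouse mutant is a standard model of cilium loss, had 24.8 with LBH589 and 7.81 untreated, 3.18-fold higher. The core subunit TTC26 (IFT56) had 29.97 with LBH589 and 8.67 untreated, 3.46-fold higher. IFT20, which also sits at the Golgi, had 46.1 with LBH589 and 19.8 untreated, 2.33-fold higher. Core and peripheral subunits were thus both among the higher genes.

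TTC30A and TTC30B are paralogous genes for the IFT70 subunit, and both promoters hold an X-box match printed above. TTC30A had 20.4 with LBH589 and 5.59 untreated, 3.64-fold higher. TTC30B was below background on both arrays, with 3.17 with LBH589 and 2.74 untreated. The probes of such paralogs may hybridise with both transcripts, which was not tested here.

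The remaining IFT-B genes had smaller ratios. RABL4 (IFT27), a small GTPase, had 14.9 with LBH589 and 9.13 untreated, a ratio of 1.63. Its partner HSPB11 (IFT25) is listed as C1orf41 and so was not counted. That probe set had 26.8 with LBH589 and 34.6 untreated, so the partners had ratios on opposite sides of 1. IFT172, the largest peripheral subunit, had 8.97 with LBH589 and 5.76 untreated. IFT52, IFT57 and TRAF3IP1 (IFT54) had ratios of 1.38, 1.27 and 1.22. The tubulin-binding pair was dim: IFT81 had 5.57 with LBH589 and 3.81 untreated, at least 1.28-fold higher against background, and IFT74 was below background on both arrays, at 4.26 and 4.28. Of further IFT-B subunits under older names, IFT22 (listed as RABL5) had 110 with LBH589 and 35.9980 untreated, 3.06-fold higher, and IFT46 (listed as C11orf60) had 55.1 with LBH589 and 29.6 untreated.

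The outward motor kinesin-2 was higher in KIFAP3, KIF3A and KIF3B. KIFAP3, the accessory subunit of kinesin-2, had 214 with LBH589 and 82.3 untreated, 2.60-fold higher. Its partners are not among the 48 genes. KIF3A, 1 of the motor subunits, had 57.8 with LBH589 and 18.1 untreated, 3.19-fold higher, and the other, KIF3B, had 86.2 with LBH589 and 37.0 untreated, 2.33-fold higher. KIF3C, which can take the place of KIF3B, had 12.6 with LBH589 and 7.12 untreated. Kinesin-2 also moves cargo outside cilia. The homodimeric KIF17 was below background on both arrays, at 3.37 with LBH589 and 4.19 untreated. For the return motor, dynein-2, DYNC2H1 and DYNC2LI1 were below background on both arrays. The brighter of 2 DYNC2H1 probe sets had 4.03 with LBH589 and 3.36 untreated. The intermediate chains WDR60 and WDR34 were measured above background, with ratios of 1.30 and 0.897.

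The BBSome and its partners had 5 of 10 measured genes 2-fold higher as deposited, beside 4.90% of all detected genes. Against background 4 of them passed (BBS4, BBS7, BBS9 and BBS10), beside 6.60% of genes with that floor. The median log2 ratio of the group was 0.96. BBS9, a subunit of the BBSome, had 28.8 with LBH589 and 6.73 untreated, 4.29-fold higher, the largest ratio of the 48 genes and rank 98 of all detected genes. BBS4 had 28.8 with LBH589 and 12.9 untreated, 2.24-fold higher, and BBS7 had 19.3 with LBH589 and 9.12 untreated, 2.12-fold higher. BBS2, which joins BBS7 and BBS9 in the core of the complex, had 35.5 with LBH589 and 19.7 untreated, a ratio of 1.80. The members of that core therefore all had ratios of 1.80 or more. The subunits BBS1 (5.07 with LBH589, 4.37 untreated) and TTC8 (8.86 and 7.89) had ratios of 1.16 and 1.12. ARL6, the GTPase that recruits the BBSome, had 4.98 with LBH589 and 4.13 untreated, at least 1.14-fold higher against background.

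BBS10 and BBS12 encode chaperonin-like proteins that help to assemble the BBSome. BBS10 had 16.3 with LBH589 and 4.9998 untreated, 3.26-fold higher. BBS12 had 6.81 with LBH589 and 3.25 untreated, and since the untreated value lay below background the difference is given as at least 1.56-fold, which is under the size used. MKKS, the third of these chaperonin-like genes and not among the 48, had 6.74 with LBH589 and 5.60 untreated.

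The transition zone genes and nephrocystins had 2 of 16 genes 2-fold higher as deposited, of which TCTN3 alone passed against background. Among all detected genes 4.90% were 2-fold higher as deposited, and 6.60% with a floor at background. The count against background was thus near the share of all genes. The median log2 ratio of this group, 0.12, was the lowest of the 5 groups on the deposited values. With a floor at background the motors were lower, at 0.00 against 0.096, since DYNC2H1 and DYNC2LI1 lay below it. With a floor of 16 the transition zone median was 0.00, as was that of the motors. The medians of IFT-B, the BBSome group and IFT-A were then 0.016, 0.013 and 0.15, so most of the contrast was gone. TCTN3, a tectonic of the MKS module, had 84.1 with LBH589 and 34.0 untreated, 2.47-fold higher. The other tectonics differed from it: TCTN2 had 44.2 with LBH589 and 34.5 untreated, and TCTN1 had 12.5 with LBH589 and 13.1 untreated. MKS1 (6.78 with LBH589, 6.395 untreated), B9D1 (6.65 and 7.27) and B9D2 (7.40 and 8.48), which form a B9-domain complex, had ratios of 1.06, 0.915 and 0.873. CC2D2A had 3.71 with LBH589 and 4.86 untreated, and AHI1 was below background on both arrays. Within the MKS module 4 genes had a log2 ratio above 0 and 4 below, and TCTN3 alone passed 1.5-fold.

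The scaffold RPGRIP1L had 8.56 with LBH589 and 3.81 untreated, at least 1.96-fold higher against background. Another scaffold, CEP290, had 7.59 with LBH589 and 4.73 untreated, a ratio of 1.61. The nephrocystins NPHP4 and INVS and the basal body protein OFD1 had ratios between 1.02 and 1.17. IQCB1 (nephrocystin 5), a partner of CEP290, had 19.7 with LBH589 and 34.7 untreated. It was 1.76-fold lower, the only 1 of the 48 genes past 1.5-fold in that direction, where 10.5% of all detected genes were. In the other direction 23 genes passed 1.5-fold, beside 11.7% of all detected genes.

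**Figure D3:**
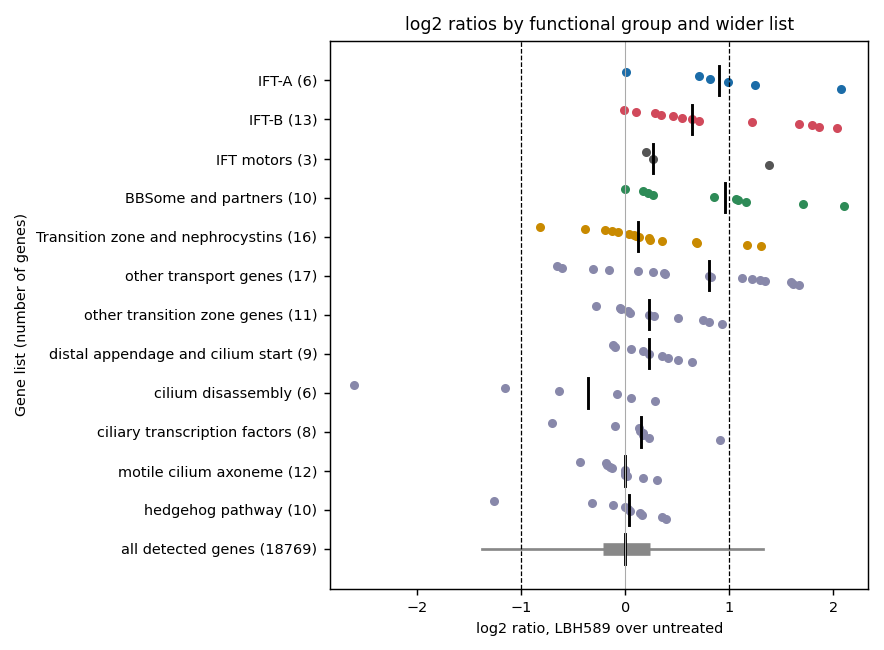
log2 ratio of LBH589 over untreated for each gene (points) of the 5 functional groups and of 7 wider lists, with the median as a black bar; the lowest row gives the median, the middle 50% (thick) and central 95% (thin) of all detected genes, and dashed lines mark 2-fold. The transition zone median of 0.12 lies left of the IFT-A (0.90), IFT-B (0.64) and BBSome (0.96) medians, and the list of cilium disassembly genes lies lowest.

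Lists of other ciliary genes, chosen with earlier results of these data known, gave the surroundings of these values. Their counts are to be read beside all detected genes, of which 4.90% were 2-fold higher and 4.86% lower. With a floor at background these shares were 6.60% and 6.67%. Of 17 further transport and cargo genes measured, 7 were 2-fold higher as deposited, 6 of them also against background, and none was 2-fold lower, with a median log2 ratio of 0.81. Besides KIF3A, KIF3B and IFT22 the 7 included PDE6D, ARL3 and, as deposited only, LZTFL1. PDE6D, which ferries lipid-modified proteins to the cilium, had 66.7 with LBH589 and 22.2 untreated, 3.01-fold higher. ARL3, the GTPase that releases such cargo, had 18.4 with LBH589 and 8.42 untreated. The phosphatase INPP5E, a cargo of that route, stayed within 2-fold, with 8.17 with LBH589 and 12.4 untreated. LZTFL1, a regulator of BBSome entry, had 7.51 with LBH589 and 2.97 untreated, at least 1.72-fold higher against background.

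Of 11 further transition zone genes and of 9 genes of the distal appendages and cilium start, none passed 2-fold, with median log2 ratios of 0.23 each. TMEM67, a transmembrane receptor of the MKS module, came nearest, with 11.4 with LBH589 and 5.97 untreated. Of 6 genes linked to cilium disassembly, 2 were 2-fold lower and none higher, where 4.86% of all detected genes were lower and 4.90% higher. The kinase AURKA, which starts disassembly and also acts in mitosis, had 51.2 with LBH589 and 114 untreated, 2.22-fold lower. PLK1, another kinase of both processes, had 23.3 with LBH589 and 141 untreated, 6.06-fold lower. KIF2A (45.1 with LBH589, 70.2 untreated), NEDD9 (103 and 84.7), NEK2 (28.9 and 27.9) and HDAC6 (16.5 and 17.5), the tubulin deacetylase, were within 2-fold. Cilia are mostly borne by cells outside mitosis. Whether the lower mitotic transcripts and the higher IFT transcripts are linked was not tested.

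A list of RFX family members and other factors linked to cilia had 8 genes measured, and none passed 2-fold. RFX5 is there as a family member, and its part in ciliary genes was not tested. RFX3, a main factor of ciliary genes, had 5.71 with LBH589 and 3.03 untreated, at least 1.31-fold higher against background. RFX2 had 6.87 with LBH589 and 6.29 untreated, RFX5 had 36.6 and 32.6, and RFX7 had 11.8 with LBH589 and 19.2 untreated. FOXJ1, the master factor of motile cilia, was near background, at 4.08 with LBH589 and 4.36 untreated. Of 12 genes of the motile axoneme, 9 were below background on both arrays and none was 2-fold higher. The summed intensity of 5 markers of multiciliated epithelium was 18.1 with LBH589 and 17.8 untreated. None of the 5 lay above background on both arrays and 3 lay below it on both, so these sums carry little information. Of 10 hedgehog pathway genes, whose signalling depends on cilia in vertebrates, the receptor GPR161 was 2.40-fold lower, with 27.7 with LBH589 and 66.5 untreated, and none was 2-fold higher. Among target genes, GLI1 (3.46 with LBH589, 3.40 untreated) and HHIP (3.29 and 3.18) were below background on both arrays. PTCH1, also a target gene, lay above background on both, with 7.30 with LBH589 and 5.58 untreated, a ratio of 1.31.

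X-box letters stood both in genes that were 2-fold higher and in others. The half-site lay within 50 bases of the start in 3 of 14 genes that were 2-fold higher and had a promoter sequence (21.4%), against 15 of 29 others (51.7%). The fuller form lay there in 5 of 14 (35.7%), against 11 of 29 (37.9%). Over the whole promoter the half-site was in 5 of 14 (35.7%), against 15 of 29 (51.7%). The fuller form was there in 8 of 14 (57.1%), against 14 of 29 (48.3%), so the order depended on form and window. The others with a half-site near the start include BBS5, DYNC2H1, DYNC2LI1, IFT74 and TTC30B, below background on both arrays, whose ratios are not usable. TTC30A, at 3.64-fold, holds the fuller form 3 bases after its start, and TTC30B, below background, holds it from 6 bases before. BBS5, whose probe set was not detected, holds it from 14 bases before its start, and TTC26, at 3.46-fold, from the same distance. IFT80, BBS12, KIFAP3 and RPGRIP1L, all 2-fold higher as deposited, had neither form of these letters in the window searched.

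**Figure D4:**
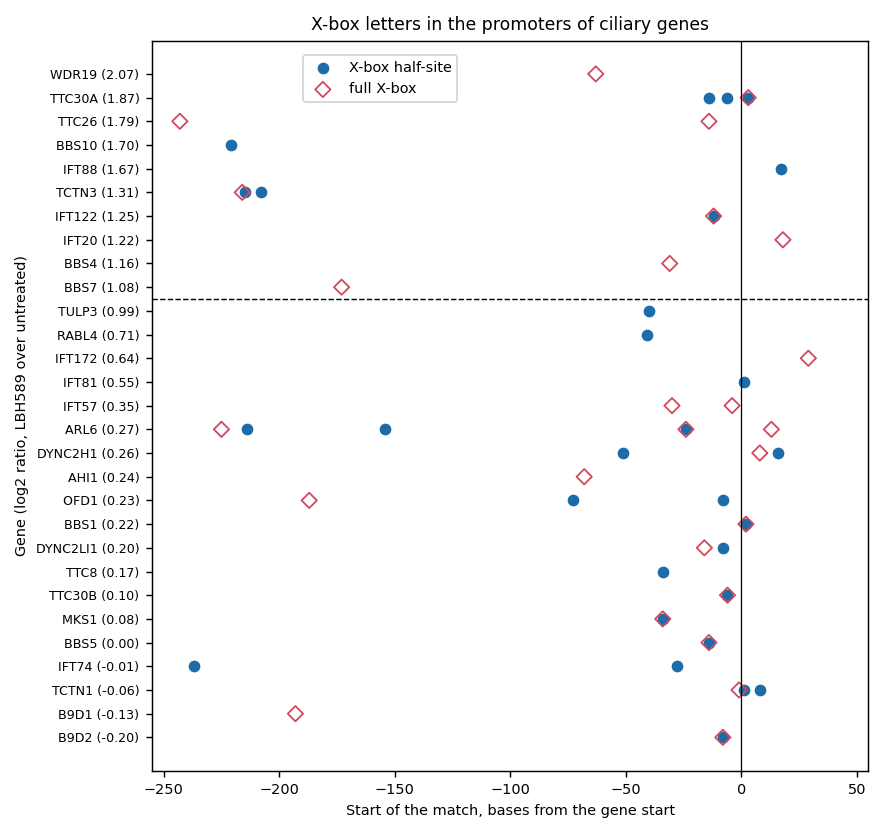
Start of each X-box half-site (filled circles) and fuller X-box match (open diamonds) in bases from the gene start, for the 29 ciliary genes with a match, sorted by log2 ratio of LBH589 over untreated (in brackets); genes with several annotated starts show matches from each. Matches crowd near 0 both above the dashed line, where the 10 genes past 2-fold lie, and below it.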

How the data were processed

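The 48 genes and the lists of other ciliary genes were chosen with earlier results of these data known. The deposited tables hold an intensity per probe set on each array. RMA (robust multi-array average) at the gene level is named per the file headers, whereas MAS5 is named in the submitters' processing notes, and the method is not settled here. The values of both deposited tables were equal. The deposited fold is the authors' ratio of LBH589 to untreated intensity; recomputed from the intensities it differed by at most 1e-08 in relative terms. For array design, software version and genome build, nothing is stated in the labels or headers.

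Of 33297 probe sets, 21864 had 1 gene symbol; those with none or several were left out. Symbols were updated with RefSeq (GRCh38.p14), and the brightest probe set stood for a gene. Intensities were floored at 2.95 (percentile 20). Background, 4.36, was percentile 95 of 450 olfactory receptor probe sets. Members are named, except a few genes that are not reported here but stay in the counts; intensities on both arrays are given for members past 1.5-fold and for those the results turn on. Of each other ciliary list, up to 4 genes past 2-fold were to be named, and every gene of a list with 6 or fewer; further ones, and those within 2-fold, were chosen after their values were seen. The calling of folds was checked on simulated intensities with known folds, set only in genes that were bright on the untreated array. Among the members KIFAP3 alone was that bright, so the check did not cover dim genes. Alternatives were the median over probe sets, centring, quantile normalization, 50 added, a floor at background, other detection rules, the second table and sizes of 1.5-fold and 3-fold; a floor of 16 and the subunits under older names were added after the data were seen. Since each group had 1 array, no difference between them was tested and the number of arrays limits the precision. A comparison of the TTC30A and TTC30B proteins was not made. Python 3.11.15, numpy 2.4.6, pandas 2.3.3 and matplotlib 3.10.9 were used.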

Additional observations from a re-analysis of the deposited data

How the results depend on the processing

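No paired analysis was possible because each group had 1 array, and for the same reason no replicate could be left out. The 15 genes at 2-fold kept their calls under quantile normalization, which gave 16. The array medians were already near before it, at 4.77 with LBH589 and 4.84 untreated. Centring, the median over probe sets, both other detection rules and the second deposited table could not change these calls. The median of all genes was already 0.00, and DYNC2H1 alone of the 48 had more than 1 probe set. All 15 lay above the floor of 2.95 on both arrays, and both tables hold the same values. None of the 48 genes was 2-fold lower under any alternative that kept this size. A floor at background left 13, without BBS12 and RPGRIP1L, with median log2 ratios of 0.41 for all 48 genes, 0.90 for IFT-A, 0.64 for IFT-B, 0.00 for the motors, 0.75 for the BBSome group and 0.096 for the transition zone; of the wider lists 6 genes were then higher. With 50 added, 1 gene was 2-fold higher. Medians were then 0.072 for all 48 genes, 0.19 for IFT-A and 0.13 for IFT-B. For the motors, the BBSome group and the transition zone they were 0.018, 0.16 and 0.014. Of the wider ciliary lists 0 genes were then 2-fold higher and 1 lower, against 7 and 3. A floor of 16, chosen after the data were seen, left 4 genes. Its medians in the same order were 0.00, 0.15, 0.016, 0.00, 0.013 and 0.00. Both settings shrink the ratios of dim genes by construction. At 1.5-fold, 23 of the 48 genes were higher and 1 lower, with 14 and 7 of the wider lists; at 3-fold, 7 were higher, with 3 and 1 of the wider lists. Adding the 4 IFT subunits under older names, also chosen afterwards, gave 16 higher genes and none lower.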

Other observations

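Some of these genes share a promoter region with a gene on the other strand, a comparison chosen after the values were seen. Of the 48, 14 had a measured partner whose start lay under 1000 bases upstream in the opposite direction, and 6 of the 14 were 2-fold higher with LBH589 as deposited. IFT80 and SMC4, a condensin subunit needed in mitosis, start 425 bases apart. SMC4 had 63.0 with LBH589 and 148 untreated, 2.36-fold lower, where IFT80 was 4.08-fold higher. MBD4, a DNA glycosylase whose start lies 276 bases from that of IFT122, had 18.5 with LBH589 and 29.7 untreated, and TNFAIP1, 289 bases from IFT20, had 34.0 with LBH589 and 43.1 untreated. All 3 partners were dimmer with LBH589, but SMC4 alone passed 2-fold. MBD4 and TNFAIP1 stayed within 2-fold, with ratios of 0.624 and 0.787. RPGRIP1L and FTO, an RNA demethylase, start 297 bases apart, and FTO had 113 with LBH589 and 37.7 untreated, 3.01-fold higher. The partners of BBS4 and TCTN3, HIGD2B and ENTPD1, were below background on both arrays. Of all 14 partners, 2 were 2-fold higher (FTO and TMTC3, the partner of CEP290), 1 was 2-fold lower and 11 were within 2-fold. Among all detected genes 4.90% were 2-fold higher and 4.86% lower.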
